A study of Rattus norvegicus with 5 samples.

Results

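The Wnt ligands, receptors and transducers described here were 39 genes, taken by exact gene symbol from the gene classes of 9 deposited region lists. They are 39 of the 23148 protein-coding genes in the RefSeq gene table used for comparison. By role they were 12 Wnt ligands, 9 Frizzled receptors, 5 co-receptors, 5 secreted antagonists, 5 genes of the destruction complex with its substrate beta-catenin, and 3 transcription factors of the TCF and LEF family. The study mapped N6-methyladenine (6mA), a methylated form of the DNA base adenine, by sequencing rat DNA enriched with an antibody against 6mA. Immunoprecipitated libraries came from NSCs, which are neural stem cells of the rat line SCR022, from Neurons and from Astrocytes, with 1 library for each cell type. No genotype, treatment, time or age is given for any of these groups, and the labels name no origin for the Neurons or the Astrocytes beyond the cell type. Input libraries, which are DNA without the antibody step, were samples for NSCs and for Neurons. The Astrocyte peaks are named as called against an astrocyte input, which appears in the mapping summary without a sample of its own and was not analysed here. Because no cell type had a replicate, no difference between cell types could be tested, and all comparisons below set single libraries side by side. The data hold no RNA measurement, so the cell type labels could not be checked against marker genes.

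Wnt proteins are secreted signals that bind Frizzled receptors together with LRP co-receptors. In the canonical branch, receptor binding disables a cytoplasmic complex of Axin, APC and the kinase GSK3, which otherwise marks beta-catenin for degradation, and beta-catenin then joins TCF and LEF factors on target genes. Non-canonical branches use receptors such as ROR1, ROR2 and RYK. In the adult hippocampus, Wnt signals from astrocytes are known to promote the formation of neurons from neural stem cells.

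Antibody libraries ranged from 15760246 to 16095308 reads, and 86.6% to 87.9% of them mapped uniquely. The inputs held 27936774 reads for NSCs and 22329441 for Neurons. From these the authors listed 121816 peaks in NSCs, 137579 in Neurons and 116091 in Astrocytes. A peak here is a region in which the antibody library exceeded its input with an authors' score of at least 50, where the score is 10 times the negative log10 of p, so that the lowest score corresponds to a p of 1e-05. The fold of a region is the authors' deposited fold enrichment, over the input for a peak and over another antibody library in a comparison. The sources used here do not give how it was computed. Some regions have the same fold and score against different libraries, so a fold is not read here as a ratio of read counts. Neither the score nor the fold counts methylated adenines.

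A larger share of these genes than of all protein-coding genes held a peak, and the number was close to that of other genes of their length. In NSCs, 21 of the 39 genes (53.8%, exact Clopper-Pearson 95% interval 37.2% to 69.9%) held 83 peaks, beside 39.3% of all protein-coding genes with at least 1 peak. In Neurons, 21 genes (53.8%, 37.2% to 69.9%) held 100 peaks, beside 42.3%. In Astrocytes, 19 genes (48.7%, 32.4% to 65.2%) held 72 peaks, beside 39.5%. Each of the 3 intervals, which cover counting error only, includes the share of all genes. At the rates of protein-coding genes in the same bins of length, given below, 39 genes of these lengths would have included 20.6 with a peak in NSCs, 21.8 in Neurons and 20.7 in Astrocytes. A peak in at least 1 cell type was present at 25 of the 39 genes (50.2% of protein-coding genes). A peak in all 3 was present at 17 genes (31.1% of protein-coding genes, and 17.3 genes at the same lengths). Per 100 kb of gene length, the 39 genes together held 3.46 peaks in NSCs, 4.17 in Neurons and 3.00 in Astrocytes, beside 3.21, 3.70 and 3.16 for all protein-coding genes. Of 23553 gene symbols in the lists, 15427 matched RefSeq. A protein-coding gene that the lists do not name by its RefSeq symbol was counted as without a region. This can lower the shares, length rates and densities of protein-coding genes given here and below, by an amount that was not tested.

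**Figure D1:**
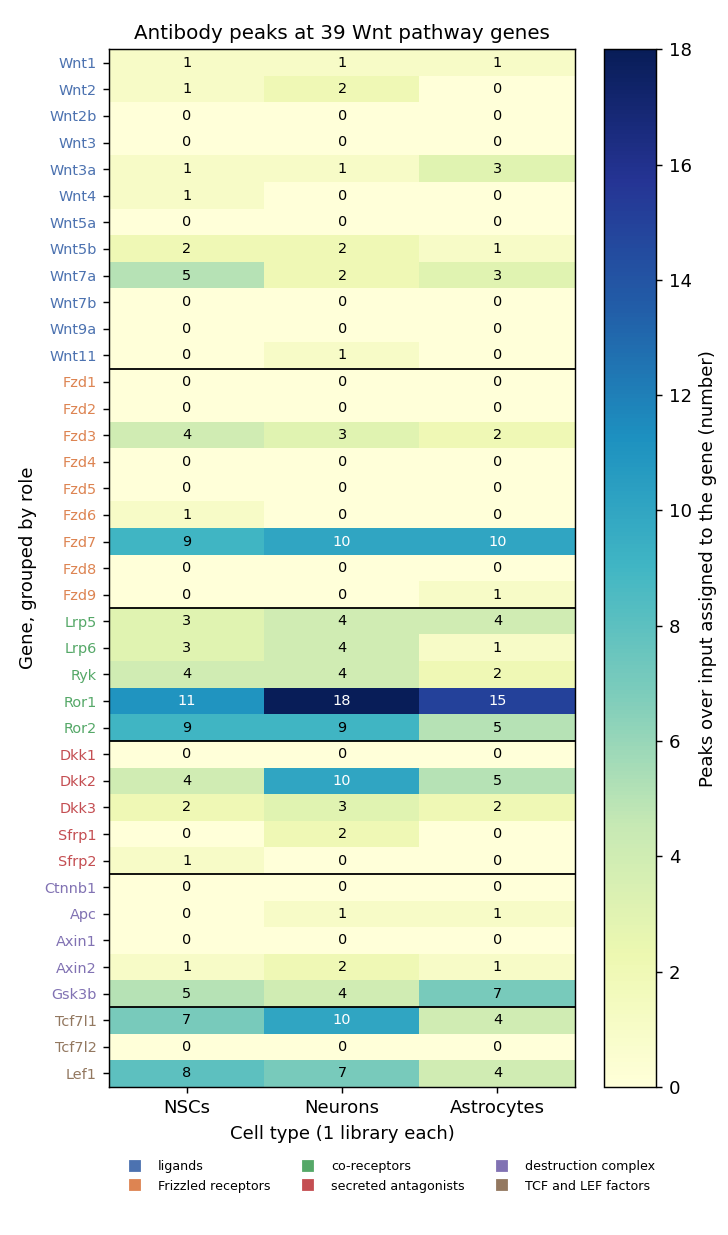
Number of peaks over input assigned to each of the 39 genes (rows, grouped and coloured by role) in NSCs, Neurons and Astrocytes (columns, 1 library each), with the number printed in each cell. Ror1 held the most peaks in every cell type, with 11, 18 and 15, and 14 genes show 0 in all 3 columns.

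Short members seldom held a peak. Of the 12 members shorter than 20 kb, 3 held a peak in each cell type, beside 17.4% (NSCs), 20.1% (Neurons) and 17.8% (Astrocytes) of protein-coding genes of that length. Of the 9 members longer than 100 kb, 8 held a peak in each cell type, beside 87.0%, 87.5% and 86.9%. Between these limits, members of 20 to 50 kb held a peak in 7, 6 and 4 of 13 cases, in the order NSCs, Neurons and Astrocytes, beside 53.9%, 58.4% and 53.9% of genes. Members of 50 to 100 kb held one in 3, 4 and 4 of 5 cases, beside 74.4%, 78.4% and 74.8%. Genes with no region in any of the 9 lists were Wnt2b, Wnt3, Fzd1, Fzd2, Fzd4, Fzd5, Fzd8, Dkk1 and Axin1, which makes 9 of 39 beside 44.5% of protein-coding genes. At the rates of genes of the same lengths, 12.6 of 39 would have had no region. Of these 9 genes, 7 are shorter than 20 kb, and Wnt3 (44.0 kb) and Axin1 (52.2 kb) are the exceptions. A further 5 genes, Wnt5a, Wnt7b, Wnt9a, Ctnnb1 and Tcf7l2, held no peak over input and appeared only in comparisons between cell types.

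**Figure D2:**
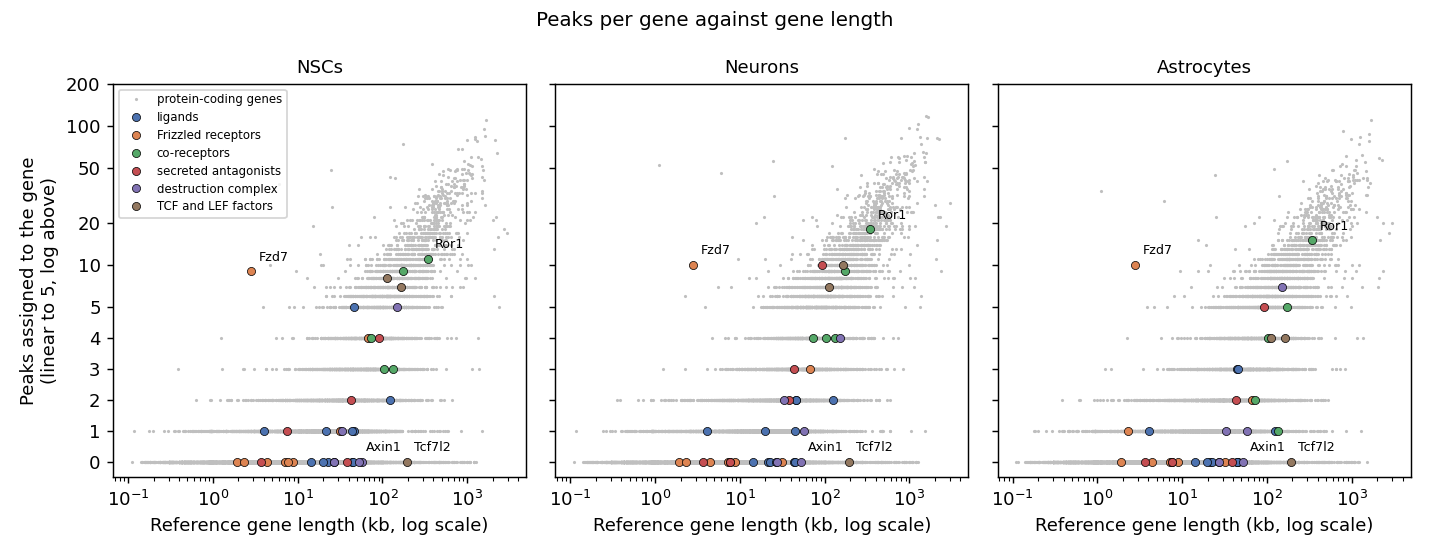
Peaks assigned to a gene (y axis, linear to 5 and logarithmic above) against its RefSeq length in kb (x axis, log scale), in 1 panel per cell type, with protein-coding genes in grey and the 39 Wnt pathway genes coloured by role. Fzd7, with 9, 10 and 10 peaks at a RefSeq length of 2.82 kb, lies apart from the grey cloud, and Tcf7l2 has 0 peaks at 193 kb.

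A few promoters carried a peak over input. The promoter class of the deposited annotation held peaks at Dkk3, Fzd7 and Ror2 in NSCs, which is 3 genes beside 6.40% of protein-coding genes. It held peaks at Dkk3 and Fzd7 in Neurons (2 genes, beside 7.94%) and at Apc, Dkk3, Fzd7 and Fzd9 in Astrocytes (4 genes, beside 6.40%). The upstream sequences of Apc, Fzd9 and Ror2 are shown because the promoter class of each gene held a peak in 1 cell type only. The peaks were not placed on these sequences, so the bases shown need not lie under a peak. They are the 250 bases before the annotated gene start in RefSeq build GRCr8, read 5′ to 3′ on the gene's strand, with every CG dinucleotide in capitals. Dkk3 had no entry in the promoter table, and the start of Fzd7 differs between the deposited annotation and RefSeq, as described with that gene.
Apc, chr18:26138132-26138381, plus strand: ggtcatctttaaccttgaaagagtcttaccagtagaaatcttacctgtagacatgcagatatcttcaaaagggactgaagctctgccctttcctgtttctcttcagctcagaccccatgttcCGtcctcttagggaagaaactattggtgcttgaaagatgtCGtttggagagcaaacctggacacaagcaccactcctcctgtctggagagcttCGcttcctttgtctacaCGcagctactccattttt
Fzd9, chr12:27063390-27063639, plus strand: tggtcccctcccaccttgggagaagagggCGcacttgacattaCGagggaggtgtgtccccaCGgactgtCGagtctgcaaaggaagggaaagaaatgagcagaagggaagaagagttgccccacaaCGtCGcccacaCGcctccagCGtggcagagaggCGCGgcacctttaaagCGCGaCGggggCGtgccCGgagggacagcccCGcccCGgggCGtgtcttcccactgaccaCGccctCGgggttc
Ror2, chr17:12124499-12124748, plus strand: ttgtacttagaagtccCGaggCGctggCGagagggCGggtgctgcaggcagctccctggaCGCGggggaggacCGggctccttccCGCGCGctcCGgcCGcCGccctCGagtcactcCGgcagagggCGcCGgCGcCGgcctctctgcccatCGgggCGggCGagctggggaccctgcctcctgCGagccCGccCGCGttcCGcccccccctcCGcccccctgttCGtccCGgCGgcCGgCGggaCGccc
Base composition differed widely among these sequences. The Apc sequence holds 4 CG dinucleotides and is 54.0% A and T. The Fzd9 sequence holds 20 and is 35.2% A and T, and the Ror2 sequence holds 34 and is 21.6% A and T. Over the 28 members with an entry in the promoter table, the median was 22 CG dinucleotides and 34.8% A and T, beside 8 and 46.0% over 21842 protein-coding promoters. Apc therefore had more A and T than the median of either set, and Ror2 less.

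The promoter-class peaks of these genes were low. The Apc peak in Astrocytes lay at chr18:27051565-27052136 in the coordinates of the deposited files, for which the sources used here give no genome build, and had a fold of 12.4 and a score of 81.4. The Fzd9 peak in Astrocytes, at chr12:24473505-24474329, touched a CpG island and its shore and had a fold of 6.07 and a score of 62.1. The Ror2 peak in NSCs, at chr17:12021571-12021983, had a fold of 8.78 and a score of 53.4. For comparison, the median score over the 3 peak lists was 87.4 and the median fold 12.1, so that Apc alone exceeded the median fold and none exceeded the median score. Their absence from the other cell types is set against a lower limit of 50 on the score.

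The core motif bound by TCF and LEF factors, CTTTGAT, was searched on both strands of the same 250 bases. It was present in 1 of the 28 members with an entry (3.57%), beside 2.97% of the 21842 protein-coding promoters. That member was Axin2, a negative regulator of the pathway and a widely used Wnt target gene. The stretch below was chosen after the search, from chr10:94398643-94398669 of GRCr8 on the plus strand, with the motif in capitals, and the motif starts 132 bases before the gene start.
Axin2: tactttcttgCTTTGATgttgggtaga
No list held a region in the promoter class of Axin2. Its peaks were an intronic one in Neurons with a fold of 9.60 and a region over an exon and intron, at chr10:97232828-97233671, that carried a peak in all 3 cell types with folds of 12.2 in NSCs, 15.3 in Neurons and 9.74 in Astrocytes.

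Among the ligands, 6 of 12 held a peak in NSCs, 6 in Neurons and 4 in Astrocytes, beside 39.3%, 42.3% and 39.5% of protein-coding genes. Wnt7a, a ligand expressed in the developing forebrain, held the most in NSCs, with 5 peaks. It shared the largest count with Wnt2 and Wnt5b in Neurons (2 each) and with Wnt3a in Astrocytes (3 each). Its strongest locus by fold in NSCs lay in an intron at chr4:123003036-123003632, with folds of 26.6 in NSCs, 29.9 in Neurons and 13.9 in Astrocytes. Another intronic locus, at chr4:123030286-123031132, had folds of 25.7, 28.0 and 15.9 in the same order. Both were present in all 3 libraries, while 2 of its loci had a peak in NSCs only. Folds of separate libraries come from separate lists and are given side by side, not compared.

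No other ligand had more than 3 peaks in a cell type. Wnt1, a founding member of the family, had a single peak within 2 kb downstream of the gene in each cell type, with folds of 14.0 in NSCs, 8.51 in Neurons and 12.9 in Astrocytes. Wnt5b, a ligand of the non-canonical branch, had 1 intronic locus shared by all 3 libraries, at folds of 20.0, 18.6 and 9.08. Wnt3a, which activates the canonical branch, had 1 peak in NSCs, 1 in Neurons and 3 in Astrocytes, and none of its loci was present in all 3. Wnt2 had a peak in NSCs with a fold of 10.1 that was also called in Neurons with a fold of 25.4, and none in Astrocytes. Wnt4 had a peak in NSCs alone (fold 10.4) and Wnt11 in Neurons alone (fold 7.97). These single-library peaks had scores of 67.2 and 60.2, close to the lower limit of 50.

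Peaks at the Frizzled receptors, the main Wnt-binding receptors, lay almost all at Fzd7 and Fzd3. Fzd7 held 9 peaks in NSCs, 10 in Neurons and 10 in Astrocytes. Its strongest locus in Neurons and Astrocytes, at chr9:66085658-66086500, had folds of 21.6 in NSCs, 32.0 in Neurons and 45.6 in Astrocytes, which was the largest fold of any member in Astrocytes. A locus in the promoter class, at chr9:66058957-66059837, had folds of 26.3, 26.6 and 16.7 and was the strongest of the gene in NSCs. The regions that the deposited annotation placed in the body of Fzd7 extended over 79.0 kb, whereas RefSeq gives the gene a length of 2.82 kb in GRCr8, between Cdk15 and Kiaa2012. The extent was 28.0 times the reference length. Among the members and the other pathway genes, the next ratio was 3.31, at Bcl9. The peak count and the promoter of Fzd7 therefore rest on the gene model of the deposited annotation. Without Fzd7, the 38 remaining genes held 3.09, 3.76 and 2.59 peaks per 100 kb in NSCs, Neurons and Astrocytes.

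Fzd3, a receptor needed for axon growth and guidance, held 4 peaks in NSCs, 3 in Neurons and 2 in Astrocytes. Its only locus with a peak in all 3 was intronic, with folds of 18.8, 14.5 and 15.8. Fzd6 had 1 exonic peak in NSCs (fold 6.38, score 50.1), which was just inside the score limit. Fzd9 had the promoter peak in Astrocytes already described. The remaining 5 Frizzled genes had no region in any list.

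**Figure D3:**
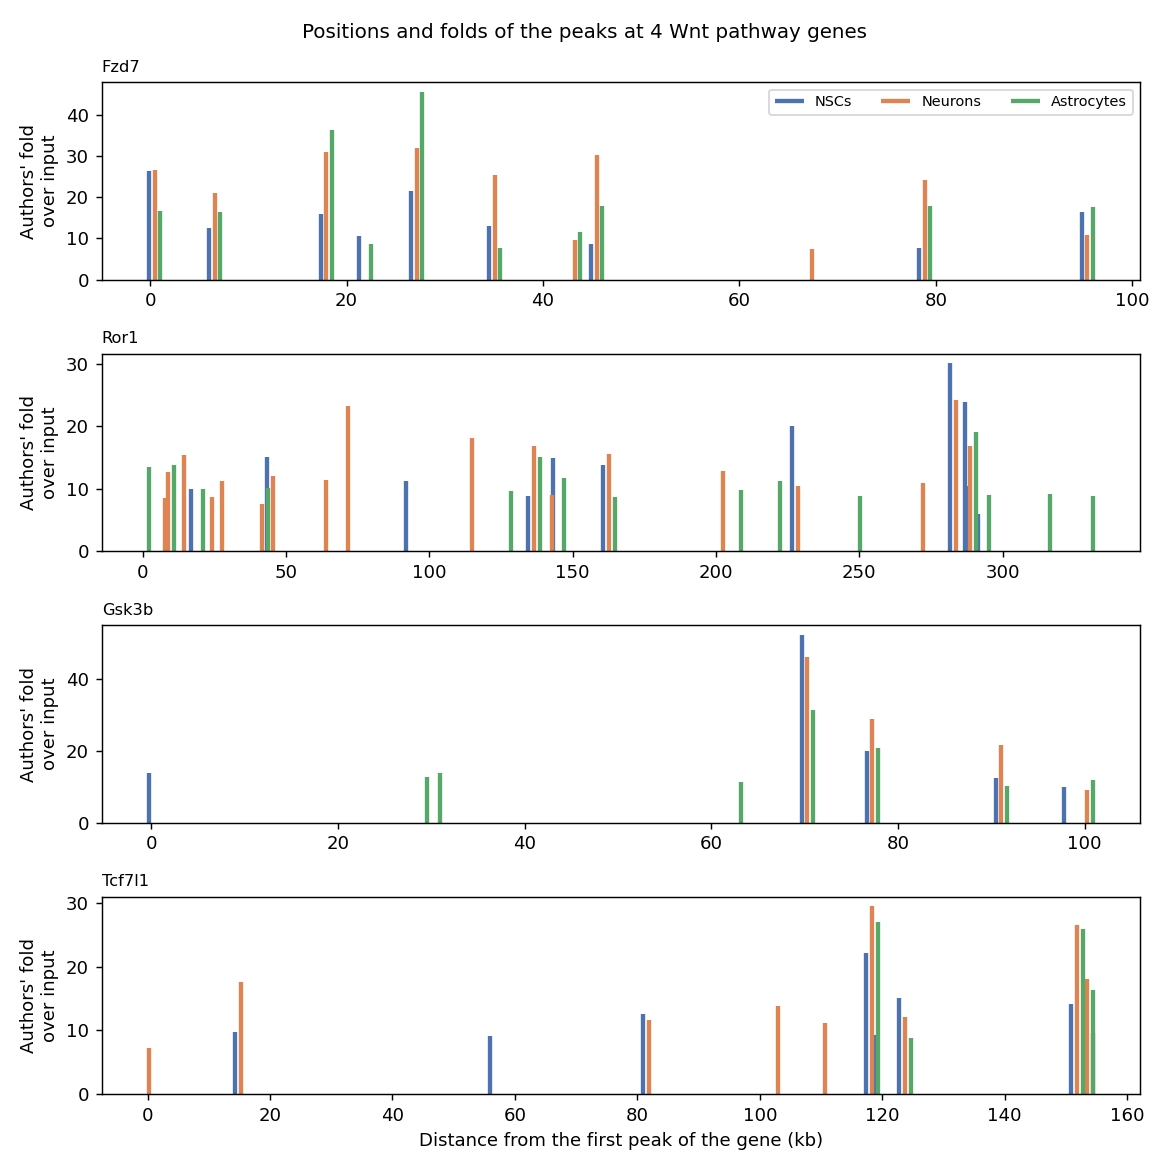
Positions and authors' folds over input of the peak loci at Fzd7, Ror1, Gsk3b and Tcf7l1, with distance from the first peak of the gene in kb on the x axis and fold on the y axis, starting at 0. Bars are coloured by cell type and shifted slightly sideways so that shared loci can be seen, as at the Gsk3b locus with folds of 52.4, 46.3 and 31.4.

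All 5 co-receptors held peaks in every cell type, with 30 peaks in NSCs, 39 in Neurons and 27 in Astrocytes. They are long genes. All but Ryk exceed 100 kb, a length at which 87.0%, 87.5% and 86.9% of protein-coding genes held a peak in these cell types. Ryk is 72.8 kb long, and 74.4%, 78.4% and 74.8% of genes of 50 to 100 kb held one. Ror1, a receptor tyrosine kinase-like protein that binds WNT5A, held 11 peaks in NSCs, 18 in Neurons and 15 in Astrocytes over a gene of 344 kb. This corresponds to 3.20, 5.24 and 4.36 peaks per 100 kb. Of its merged loci, 3 had a peak in all 3 cell types, and the locus at chr5:119196025-119196707 had folds of 23.8 in NSCs, 16.9 in Neurons and 19.1 in Astrocytes. The highest fold of Ror1, 30.1 in NSCs, was at chr5:119191030-119191666, where Neurons had 24.2 and Astrocytes had no peak.

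Ror2, its relative, held 9 peaks in NSCs, 9 in Neurons and 5 in Astrocytes. Its intronic locus at chr17:12059752-12060586 had folds of 34.2 in NSCs, 41.0 in Neurons and 38.2 in Astrocytes. The score of that locus in Neurons was 1098, the highest of any member locus. A second intronic locus of Ror2, at chr17:12105639-12106419, had folds of 25.5, 21.2 and 36.7.

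Ryk, an atypical kinase that acts as a Wnt receptor in axon guidance, had the member region with the largest fold in the comparison lists. Its exonic region at chr8:111377438-111378023 was a peak in NSCs with a fold of 28.8 and a score of 265. Neurons had a peak at the same locus with a fold of 7.74, and Astrocytes had none. In the authors' deposited tables the region was listed as higher in NSCs than in Astrocytes (fold 30.6) and than in Neurons (fold 9.94). Lrp5 and Lrp6, the co-receptors of the canonical branch, held 3 and 3 peaks in NSCs, 4 and 4 in Neurons, and 4 and 1 in Astrocytes. Lrp5 had an intronic locus with folds of 15.7, 18.4 and 25.2 in NSCs, Neurons and Astrocytes, and the shared locus of Lrp6 had 10.0, 15.7 and 7.63.

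Of the secreted antagonists, which keep Wnt ligands or LRP receptors from signalling, Dkk2 held most of the peaks. It had 4 in NSCs, 10 in Neurons and 5 in Astrocytes, and 4 of its loci were present in all 3. The strongest of these, in an intron at chr2:237170163-237170845, had folds of 13.9, 26.7 and 24.6. Another 5 of its loci had a peak in Neurons only, with scores of 53.1 to 122. Dkk3, a more distant relative, had 2 peaks in NSCs, 3 in Neurons and 2 in Astrocytes. Its promoter peaks did not overlap: NSCs and Astrocytes shared a region at chr1:176984880-176985397, with folds of 6.89 and 11.7, and Neurons had one close by at chr1:176984571-176984824, with a fold of 7.88. Their scores were 52.5 in NSCs, 73.1 in Astrocytes and 53.6 in Neurons, and no comparison list held a promoter region of Dkk3. Sfrp1 had 2 peaks in Neurons only (folds 6.08 and 6.37), and Sfrp2 had 1 downstream peak in NSCs only (fold 8.74).

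In the destruction complex, Gsk3b, the kinase that phosphorylates beta-catenin, held 5 peaks in NSCs, 4 in Neurons and 7 in Astrocytes. Its intronic locus at chr11:65170799-65171250 had folds of 52.4 in NSCs, 46.3 in Neurons and 31.4 in Astrocytes, the largest folds of any member in NSCs and in Neurons. A neighbouring locus, at chr11:65177666-65178251, had folds of 19.9, 28.9 and 20.7. Apc, the scaffold of the complex, had the promoter peak in Astrocytes and a separate exonic peak in Neurons (fold 8.45, score 50.1). Axin1, the other scaffold, and Ctnnb1, which encodes beta-catenin, had no peak over input.

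Among the transcription factors, Lef1 held 8 peaks in NSCs, 7 in Neurons and 4 in Astrocytes, and Tcf7l1 held 7, 10 and 4. The strongest locus of Tcf7l1, which mostly represses Wnt targets in stem cells, lay at chr4:100612479-100613109 with folds of 22.1, 29.4 and 27.0. At Lef1 the shared locus with the largest fold in NSCs and Astrocytes, at chr2:236292802-236293515, had folds of 9.89, 11.8 and 17.4, and that with the largest fold in Neurons, at chr2:236247583-236248198, had 9.05, 15.4 and 9.42. Tcf7l2 had no peak over input, although RefSeq gives it a length of 193 kb and 87.0% of protein-coding genes over 100 kb held a peak in NSCs.

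Tcf7l2 lies between Vti1a and Habp2 in RefSeq. In the deposited NSC list, 29 peaks lay in the 564 kb between the last Vti1a peak and the first Habp2 peak, and 26 of them were assigned to no gene. In Neurons 35 of 39 peaks in this interval were assigned to no gene, and in Astrocytes 25 of 27. The largest fold among them was 65.5 in NSCs, 48.2 in Neurons and 79.4 in Astrocytes. The count of 0 at Tcf7l2 thus refers to the assignment in the deposited annotation, and the share of these peaks that lies within Tcf7l2 was not tested. The only region assigned to it was exonic, at chr1:276729633-276729894, and the authors' deposited table lists it as higher in Neurons than in Astrocytes (fold 8.73).

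Peaks that overlapped by at least 1 bp across cell types were merged, which gave 157 loci at the members. Of these, 36 had a peak in all 3 cell types, 26 in 2 and 95 in 1. The loci seen in 1 cell type were 45 in Neurons, 28 in NSCs and 22 in Astrocytes. Among the member peaks, 43.4% of those in NSCs overlapped a peak in both other cell types, with an exact 95% interval of 32.5% to 54.7%. The share was 36.0% (26.6% to 46.2%) in Neurons and 50.0% (38.0% to 62.0%) in Astrocytes. Over all peaks in protein-coding genes, these shares were 46.4%, 40.2% and 47.3%, each inside the interval of the members. The intervals cover counting error only and treat peaks of 1 gene as independent.

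Loci present in all 3 cell types had the higher scores. In NSCs the median score was 126 at loci shared by all 3 and 63.3 at loci of NSCs alone. In Neurons these medians were 174 and 62.1, and in Astrocytes 142 and 64.7. The lowest score at a locus of 1 cell type was 50.1 in NSCs, 50.1 in Neurons and 51.2 in Astrocytes. At loci of all 3 it was 51.7, 50.8 and 54.7, so loci of both kinds reached close to the limit of the lists. By their medians, loci of 1 cell type lay closer to that limit.

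**Figure D4:**
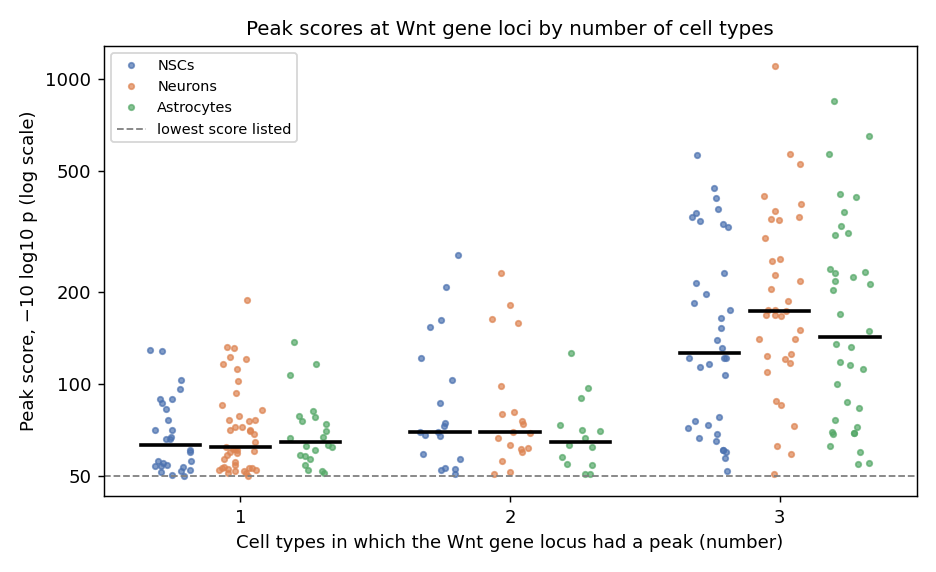
Authors' peak score (y axis, log scale) at the Wnt gene loci with a peak in 1, 2 or 3 cell types (x axis), with 1 point per peak coloured by cell type and black bars at the medians. Loci of all 3 cell types reach medians of 126, 174 and 142, while loci of 1 cell type have medians of 63.3, 62.1 and 64.7, near the dashed line at the lowest listed score of 50.

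Overlap with neither other cell type was found for 28 of 83 member peaks in NSCs (33.7%), 45 of 100 in Neurons (45.0%) and 22 of 72 in Astrocytes (30.6%), beside 30.4%, 35.5% and 28.7% of the peaks in protein-coding genes. A peak called in 1 cell type was often not listed as different from the others. Of the 45 member peaks that overlapped no peak of the other cell types in Neurons, the authors' deposited tables listed 9 as higher than both other libraries, 20 as higher than 1 of them and 16 as higher than neither. The 28 such peaks in NSCs divided into 8, 12 and 8, and the 22 in Astrocytes into 5, 7 and 10. In percent, 28.6% of those in NSCs, 35.6% in Neurons and 45.5% in Astrocytes were listed as higher than neither, beside 43.0%, 44.0% and 54.8% of such peaks over all protein-coding genes. Those listed as higher than both were 28.6%, 20.0% and 22.7%, beside 22.6%, 20.3% and 15.9%.

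The direct comparisons between antibody libraries held regions at 30 of the 39 genes, beside 46.6% of protein-coding genes with a region in at least 1 of the 6 lists. At the rates of genes of the same lengths, 23.2 of 39 would have had one. The members' share, 76.9%, was thus higher than at these lengths. No interval was computed for it, and the intervals below cover each list alone. The authors listed 32 regions at 13 members as higher in Neurons than in NSCs (23.3% of protein-coding genes had such a region) and 23 regions at 13 members as higher in NSCs (20.6%). They listed 21 regions at 13 members as higher in Astrocytes than in NSCs (18.6%) and 31 regions at 17 members as higher in NSCs than in Astrocytes (22.3%). Between Astrocytes and Neurons, 17 regions at 12 members were higher in Astrocytes (15.3%) and 36 regions at 16 members in Neurons (25.6%). At the rates of other genes of the same lengths, 13.1, 11.7, 10.7, 12.6, 8.93 and 14.2 members would have had a region in these 6 lists, in the order given. As a share of the 39 genes, the members called were 33.3% in each of the first 3 lists (exact 95% interval 19.1% to 50.2%). They were 43.6% (27.8% to 60.4%) for NSCs over Astrocytes, 30.8% (17.0% to 47.6%) for Astrocytes over Neurons and 41.0% (25.6% to 57.9%) for Neurons over Astrocytes. The share of all protein-coding genes lay below the interval for Astrocytes over NSCs, NSCs over Astrocytes and Astrocytes over Neurons, and at the lower bound for Neurons over Astrocytes. The shares at the members' lengths were 33.6%, 30.1%, 27.4%, 32.4%, 22.9% and 36.3%, in the same order, and each lay inside its interval. In the same order, 7, 8, 7, 7, 7 and 11 of the listed member regions overlapped no peak over input of either library compared. The split between directions was close to that of other genes. Of the member regions, 58.2% were higher in Neurons than in NSCs (exact 95% interval 44.1% to 71.3%), beside 54.9% over protein-coding genes. In the same way, 40.4% (27.0% to 54.9%) were higher in Astrocytes than in NSCs, beside 42.3%, and 32.1% (19.9% to 46.3%) were higher in Astrocytes than in Neurons, beside 30.0%. The 3 pairs share libraries, so their counts are not independent. Regions of 1 gene are not independent either, although the intervals treat them so and cover counting error only. Ror1 alone gave 11 of the 36 regions higher in Neurons than in Astrocytes.

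**Figure D5:**
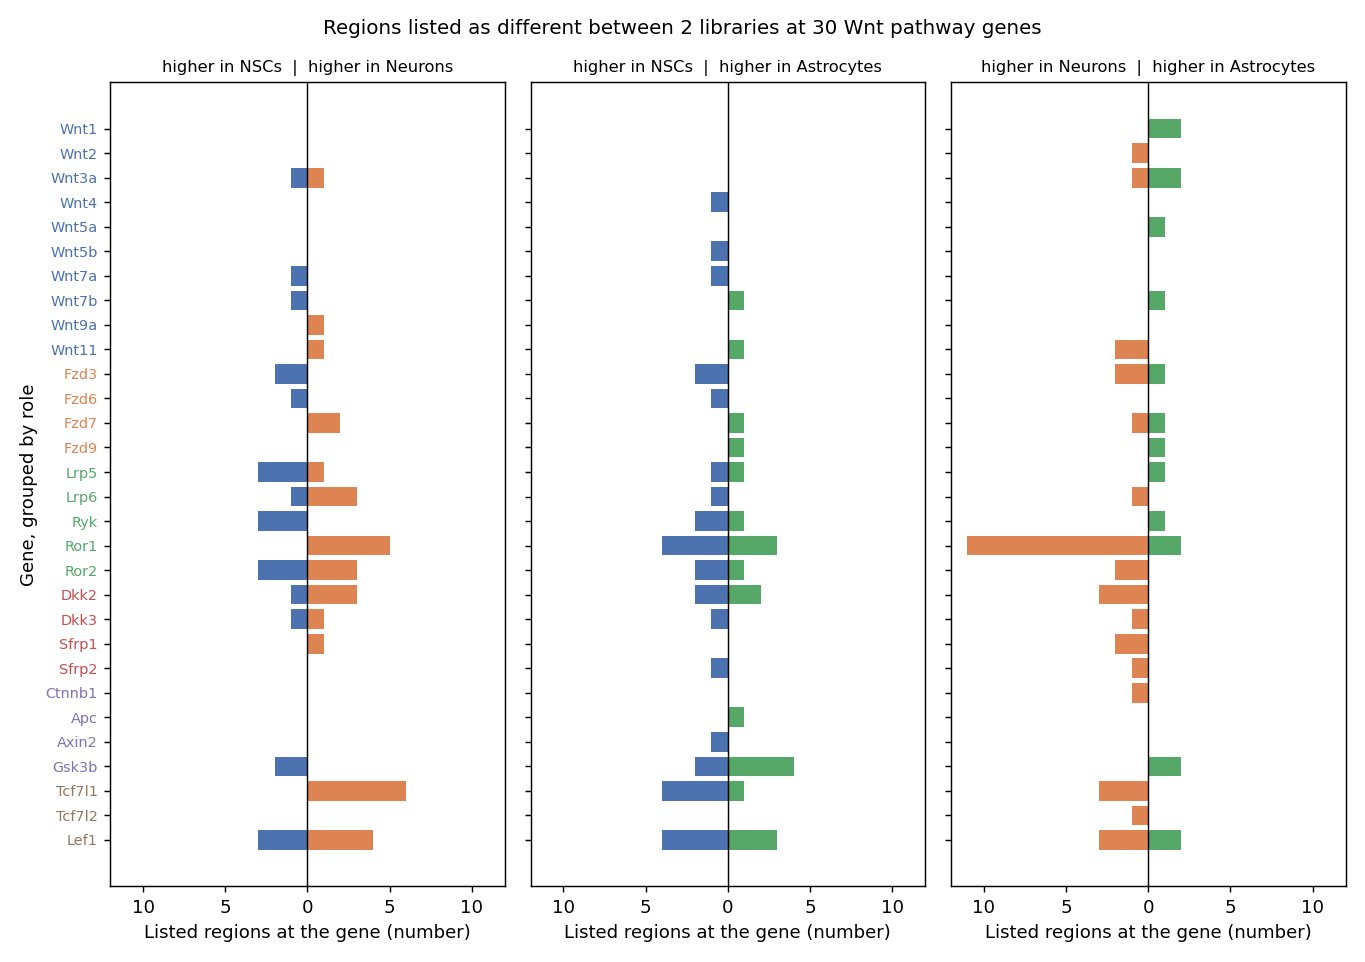
Number of regions that the authors listed as different between 2 antibody libraries at each of the 30 genes with such a region, in 1 panel per pair, with bars to the right for the library named on the right of the panel title and to the left for the other. Ror1 has 11 regions higher in Neurons than in Astrocytes and 2 in the other direction, and the antagonists Dkk2, Dkk3, Sfrp1 and Sfrp2 have 7 higher in Neurons and 0 higher in Astrocytes.

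Several ligands differed in 1 direction. At Wnt11, which acts mainly in the non-canonical branch, the authors' deposited tables listed 1 region as higher in Neurons than in NSCs (fold 11.2) and 2 as higher in Neurons than in Astrocytes (folds 16.0 and 11.5). A further Wnt11 region was higher in Astrocytes than in NSCs, with a fold of 6.57 in the authors' deposited table. At Wnt4 and at Wnt5b a single region was higher in NSCs than in Astrocytes (folds 7.25 and 9.13), and at Wnt2 a single region was higher in Neurons than in Astrocytes (fold 8.46), all from the authors' deposited tables. Wnt7a had 1 region higher in NSCs than in Astrocytes (fold 7.24) and 1 higher in NSCs than in Neurons (fold 9.46) in the authors' deposited tables. Wnt7b and Wnt5a were listed without any peak over input. For Wnt7b, the authors' deposited tables gave 3 separate regions, with folds of 10.6 for Astrocytes over NSCs, 8.77 for Astrocytes over Neurons and 10.4 for NSCs over Neurons. For Wnt5a they gave 1 region, with a fold of 11.7 for Astrocytes over Neurons in the authors' deposited table.

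Promoter regions of 4 members appeared in the comparisons with no peak over input at the same place. Wnt3a and Wnt9a are adjacent genes in RefSeq, and a promoter region of each was listed as higher in Neurons than in NSCs. The authors' deposited table places the Wnt3a region at chr10:45639211-45639642, in a CpG island shore, with a fold of 11.1. It places the Wnt9a region at chr10:45659020-45659410, in a CpG island, with a fold of 7.65 in the authors' deposited table. The scores of these regions were 51.4 and 50.9. The intronic regions of Wnt3a went in other directions. In the authors' deposited tables, 1 was higher in NSCs than in Neurons (fold 13.4), 2 were higher in Astrocytes than in Neurons (folds 10.7 and 12.5) and 1 was higher in Neurons than in Astrocytes (fold 14.3). At Wnt1 a promoter region in a CpG island shore was listed in the authors' deposited table as higher in Astrocytes than in Neurons (fold 10.7). At Lef1 a promoter region in a CpG island, at chr2:236233797-236234223, was listed as higher in Astrocytes than in NSCs and than in Neurons. Its fold of 6.39 and score of 53.1 were the same in both of the authors' deposited tables. Among genes with a promoter region in these lists, Neurons over NSCs held 2 members (2.57% of protein-coding genes), NSCs over Neurons 1 (2.01%), Astrocytes over NSCs 3 (1.79%) and Astrocytes over Neurons 3 (1.29%). The lists for NSCs over Astrocytes (2.04%) and Neurons over Astrocytes (3.01%) held 0. The promoters of Apc and Fzd9 were among those higher in Astrocytes, with folds of 14.7 for Apc over NSCs, and of 5.88 over NSCs and 7.83 over Neurons for Fzd9, in the authors' deposited tables. The Ror2 promoter was higher in NSCs than in Neurons, with a fold of 8.64 in the authors' deposited table.

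Of the receptors, Fzd6 was listed as higher in NSCs at its exonic region in both pairs, with folds of 9.73 over Neurons and 15.9 over Astrocytes in the authors' deposited tables. Fzd3 had 2 regions higher in NSCs than in Neurons and 0 in the other direction, and neither region overlapped a Fzd3 peak over input. Fzd7 had 2 regions higher in Neurons than in NSCs and 0 in the other direction, and the folds of both, 8.04 and 7.52 in the authors' deposited table, were below the list median of 9.70. The locus with its largest fold in Astrocytes was listed as higher in Astrocytes than in NSCs, with a fold of 4.16 in the authors' deposited table.

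Ror1 had the most regions of any member in 1 list, with 11 higher in Neurons than in Astrocytes. Their folds in the authors' deposited table were 6.65 to 12.2, and 9 of the 11 overlapped a Neuron peak. Ror1 also had 5 regions higher in Neurons than in NSCs and 0 in the other direction, the largest at chr5:119022216-119022519 with a fold of 18.5 in the authors' deposited table. Between NSCs and Astrocytes, by contrast, its regions went both ways, with 4 higher in NSCs and 3 in Astrocytes. Ryk had 3 regions higher in NSCs than in Neurons and 0 in the other direction. Lrp6 had a region at chr4:168285966-168286250 with folds of 13.3 over Astrocytes and, at almost the same position, 14.8 over Neurons in the authors' deposited tables, both for NSCs. Lrp6 otherwise ran the other way between NSCs and Neurons, with 3 regions higher in Neurons at folds of 13.5, 9.87 and 13.6 in the authors' deposited table, beside the 1 region higher in NSCs. Lrp5 also had regions in both directions of this pair, with 3 higher in NSCs and 1 in Neurons.

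The secreted antagonists had 7 regions higher in Neurons than in Astrocytes, at Dkk2, Dkk3, Sfrp1 and Sfrp2, and 0 higher in Astrocytes. The exact 95% interval for the share higher in Astrocytes ran from 0% to 41.0%, which includes the 30.0% of protein-coding genes. It treats the 7 regions as independent. Dkk2 alone gave 3 of the 7, with folds of 9.10 to 13.0 in the authors' deposited table. Sfrp1 also had 1 region higher in Neurons than in NSCs, with a fold of 5.94 in the authors' deposited table. The Sfrp2 region, with a fold of 7.49 in the authors' deposited table, overlapped the NSC peak downstream of the gene and no Neuron peak.

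Gsk3b was listed in both directions between Astrocytes and NSCs, with 4 regions on the side of Astrocytes and 2 on that of NSCs. It had 2 regions higher in NSCs than in Neurons and 2 higher in Astrocytes than in Neurons, and none higher in Neurons. The intronic locus with the largest folds over input was in none of the comparison lists. The single region of Ctnnb1, over an exon and intron, was listed as higher in Neurons than in Astrocytes. Its fold was 10.4 in the authors' deposited table, with a score of 51.8. Axin2 had a single region, higher in NSCs than in Astrocytes, with a fold of 13.3 in the authors' deposited table.

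Tcf7l1 had 6 regions higher in Neurons than in NSCs and 0 in the other direction, with folds of 6.09 to 18.0 in the authors' deposited table. It had 3 regions higher in Neurons than in Astrocytes and 0 in the other direction. The region at chr4:100647713-100648096 was higher in Astrocytes than in NSCs, with a fold of 18.1 in the authors' deposited table. An overlapping region was higher in Neurons than in NSCs (fold 18.0), so that NSCs were the low library at this intronic position. NSCs had no peak over input there. The other 4 Tcf7l1 regions of the pair NSCs and Astrocytes were higher in NSCs, with folds of 4.66 to 8.92 in the authors' deposited table. Lef1 went both ways in all 3 pairs, with 4 regions higher in Neurons and 3 in NSCs, 3 in Astrocytes and 4 in NSCs, and 2 in Astrocytes and 3 in Neurons.

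The position of member peaks within genes was that of protein-coding genes in general. Peaks assigned to introns and to no exon, promoter or flank made up 86.7% of the member peaks in NSCs, 89.0% in Neurons and 87.5% in Astrocytes, beside 87.7%, 86.8% and 87.5% of all peaks in protein-coding genes. The median fold of member peaks was 11.3 in NSCs, 11.9 in Neurons and 11.8 in Astrocytes, beside 12.2, 12.1 and 12.3 over the whole lists.

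The authors' deposited KEGG tables count genes of the Wnt signaling pathway with a peak. They give 83 of 146 genes in NSCs, with an adjusted p of 0.0638, 83 in Neurons, with an adjusted p of 0.189, and 74 in Astrocytes, with an adjusted p of 0.235, all from the authors' deposited tables. These counts are 56.8%, 56.8% and 50.7% of the pathway genes, beside 39.3%, 42.3% and 39.5% of protein-coding genes with a peak. The numbers expected for the pathway were 59.3, 64.8 and 58.9 genes. The hit lists of those tables name 16, 16 and 14 of the members, all of which also held a peak here. Dkk3, Fzd7, Ror1, Ror2 and Ryk held peaks and were not in the hit lists.

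The other genes of the pathway, 71 in number, covered Wnt secretion, R-spondins and their LGR receptors, Dishevelled proteins, further antagonists, co-activators and planar cell polarity genes. Of these, 42 held a peak in NSCs (39.3% of protein-coding genes), 46 in Neurons (42.3%) and 43 in Astrocytes (39.5%), where genes of the same lengths would have given 38.2, 40.3 and 38.3. The largest counts were at Tnik, a kinase that acts with TCF factors, with 27, 26 and 31 peaks, and at Prickle2, a planar cell polarity gene, with 19, 18 and 19. Lgr6 and Lgr5, receptors for R-spondins, held 12, 11 and 12, and 7, 9 and 8. Macf1, a cytoskeletal linker, held 8, 9 and 9. Of the 71 genes, 39 held a peak in all 3 cell types (31.1% of protein-coding genes, and 32.4 genes at the same lengths) and 16 had no region in any list (44.5%, and 22.6 genes).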

How the data were processed

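DNA of 3 antibody libraries and 2 inputs was measured, 1 library per group. DNA was sonicated, ligated to adaptors, denatured and enriched with an anti-6mA antibody, per the labels' protocols. Reads were aligned with BWA, per the submitters' processing notes. The sources used here give no genome build, annotation, filters or peak caller version. Read counts and mapping rates in percent, and uniquely mapped reads in the same chromosome (another read number, not used in the results), were deposited by the authors. A mapping row of 1 library without a sample, the astrocyte input, was not used. The authors' score is deposited as 10 times the −log10 of a p-value. The authors' fold is deposited as a fold enrichment between 2 libraries, and the sources used here do not give how it was computed. The adjusted p-value and gene counts per KEGG term were deposited by the authors.

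Regions were read as deposited (6 blank lines were skipped) and assigned to a gene when any promoter, upstream, exon, intron, downstream or gene body class named it. The median score or fold over all lists of a kind served as the stricter limits. Of 23553 gene symbols in the lists, 15427 matched the RefSeq table of GRCr8, which supplied gene lengths, neighbours and promoters, with no coordinates of it set beside those of the lists. All 39 members matched it, and 28 had a promoter sequence. Intervals are exact Clopper-Pearson, cover counting error only and treat genes, peaks or regions as independent. Counting was tested on simulated data. Named were members with promoter or exon regions, those with the most peaks or largest fold in a role, those without a region and those with 1 direction in a pair, and the 5 other pathway genes with the most peaks. The members and lists were chosen with earlier results of these data known. Alternatives were a stricter score, a stricter fold, the gene body class alone, promoter with upstream class, an overlap of 50% of both peaks, and other gene sets for the background. Python 3.11.15, pandas 2.3.3, SciPy 1.17.1 and matplotlib 3.10.9 were used.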

Additional observations from a re-analysis of the deposited data

How the results depend on the processing

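With 1 library per cell type no replicate could be left out, and peaks near the score limit of 50 may be absent from a list for lack of depth. No paired analysis was possible because each group had 1 library. Limits at the median score (87.4 for peaks, 62.4 for comparisons) or at the median fold (12.1 and 9.53) removed many regions by construction. At the stricter score the members held 36 peaks in NSCs, 45 in Neurons and 30 in Astrocytes, and at the stricter fold 41, 49 and 34. Promoter peaks remained at 1 member in NSCs and 1 in Neurons under both limits, and in Astrocytes at 1 (score) and 2 (fold). Comparison regions at members, in the order Neurons over NSCs, NSCs over Neurons, Astrocytes over NSCs, NSCs over Astrocytes, Astrocytes over Neurons and Neurons over Astrocytes, numbered 14, 10, 8, 18, 10 and 20 at the stricter score and 16, 13, 13, 16, 8 and 20 at the stricter fold. The members holding them fell to 7, 8, 8, 13, 9 and 11 at the stricter score and to 7, 10, 8, 11, 7 and 10 at the stricter fold. The other pathway genes fell in these lists to 16, 16, 15, 19, 11 and 22 at the stricter score and to 14, 14, 16, 19, 10 and 19 at the stricter fold.

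The share of genes with a region moved with the gene set. For NSC, Neuron and Astrocyte peaks it was 22.7%, 24.6% and 22.7% over all RefSeq symbols, and 34.8%, 37.3% and 35.0% in the gene body class alone. It was 42.8%, 46.1% and 43.1% without placeholder names, a set chosen after seeing the data. For the 6 comparison lists in the order above, it was 12.9%, 11.3%, 10.1%, 12.2%, 8.23% and 14.3% over all symbols. It was 20.8%, 18.4%, 16.8%, 20.0%, 13.9% and 22.7% in the gene body class, and 25.5%, 22.5%, 20.4%, 24.3%, 16.8% and 28.0% without placeholder names. The gene body class alone left all 30 counts and shares of members and other pathway genes computed with it within 1.5 times of the values above or inside their intervals. The shares of peaks common to all cell types stayed inside their intervals under each limit and overlap tried.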
